A study of Mus musculus with 6 samples.

Results

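The 10 genes described here are the YAP and TAZ co-activators (Yap1 and Wwtr1), the DNA-binding factors they work through (Tead1, Tead2, Tead3 and Tead4) and 4 of their widely used target genes (Ctgf, Cyr61, Amotl2 and Ankrd1). They were picked by symbol from the 24421 genes of the deposited count table, and each of the 10 symbols was found there once. Of the 10 genes, 9 had enough reads to be tested between the treatments and 1, Ankrd1, had no read in any library.

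The Hippo pathway is a chain of kinases that restrains growth. When it is active, the kinases Stk3 and Stk4 with their partner Sav1 switch on Lats1 and Lats2, which work with Mob1a and Mob1b and phosphorylate YAP and TAZ, so that both are held in the cytoplasm or degraded. When it is inactive, YAP and TAZ enter the nucleus, bind TEAD factors and raise transcription of genes such as Ctgf and Cyr61. Neither protein binds DNA by itself, and most of the control acts on the proteins, which RNA counts do not measure. In neural progenitors the pathway is known for its part in proliferation and in the balance between progenitors and their progeny.

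The cells were primary neural stem cells from the subventricular zone (SVZ) of C57BL/6 mice at postnatal day 60, wild type and grown with EGF and FGF2 at 20 ng/ml each. After a medium change at 24 h they received either DMSO, the solvent control, or 20 µM PluriSIn#2, a small molecule that the series describes as a specific inhibitor of topoisomerase IIA, for 3 days. RNA of each group was sequenced in 3 libraries, and the study compared them to see which transcripts depend on Top2a, the gene of that enzyme. No label says that the 3 libraries of a group came from separate cultures or animals, so the p-values measure the spread between these libraries, which may be technical. The titles number the treated libraries 1 to 3, but the treatment field of treated replicates 2 and 3 names PluriSIn with other numbers than the titles do. All 3 were grouped by title, and every count was also computed with treated replicate 1 alone.

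Libraries held between 16670962 and 19241869 counts. Top2a itself stood at 878 ± 21.2 CPM (reads scaled to a common library size, SD, n = 3) with DMSO and at 6.01 ± 1.29 with PluriSIn#2, a log2 fold change of -7.18 (SE 0.045, adjusted p = 2.14e-102). The treatment went with a change in most of the transcriptome: edgeR called 82.6% of the 14417 genes tested at an adjusted p under 0.05, 41.7% as higher and 40.9% as lower with PluriSIn#2, and 28.0% were called with at least a 2-fold change. The values of the 2 groups did not overlap for 82.7% of the genes tested. All 12 neural stem cell markers were detected in both groups, with a summed level of 8384 to 8485 CPM with DMSO and 7500 to 7538 CPM with PluriSIn#2, and 3 of them were higher and 9 lower. Vim and Slc1a3, the 2 most abundant, were among the 3 higher, with log2 fold changes of 0.20 (SE 0.017) and 0.48 (SE 0.017). Most of the summed level came from these 2, at 2667 and 1936 CPM with DMSO and 3059 and 2705 CPM with PluriSIn#2. The sum therefore understates the falls of the 9 lower markers. Among the 9 lower, named after their values were seen, Nes, which encodes the progenitor filament nestin, fell by 1.44 on the log2 scale (SE 0.021), Egfr, the gene of the EGF receptor, by 1.31 (SE 0.025) and Hes5, a Notch target, by 2.33 (SE 0.081).

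TEAD factors bind the sequence GGAATG, which reads CATTCC on the other strand. The start sites of 7 of the 10 genes were in the RefSeq promoter table (build GRCm38.p6), with 10 windows running from 250 bases before to 50 bases after a start. Ctgf, Tead1 and Tead4 had no window there. GGAATG on either strand was found in 8 of these 10 windows and in at least 1 window of 6 of the 7 genes, while 14.7% of all 32851 windows held it. Cyr61, Amotl2 and Ankrd1 are in the set as known targets of these factors, so this contrast is a description and not a test. Windows of 1 gene overlap, so the 10 are not separate sequences. The AP-1 sequence TGANTCA, whose factors often bind near TEAD factors, was in 0 of the 10 windows and in 7.81% of all windows. A match is a run of letters and not a binding site that was measured. The promoter of Cyr61, the most abundant target gene among the 4 after treatment, is shown with its 1 match in capitals, as the 250 bases before the start site (chr3:145649986-145650235, minus strand).
Cyr61: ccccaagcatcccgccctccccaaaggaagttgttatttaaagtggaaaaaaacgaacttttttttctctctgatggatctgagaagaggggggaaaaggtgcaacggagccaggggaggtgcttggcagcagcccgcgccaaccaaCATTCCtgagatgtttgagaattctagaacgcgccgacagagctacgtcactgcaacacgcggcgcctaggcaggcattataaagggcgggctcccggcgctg
Shorter pieces around the match are shown for 2 other targets and for Tead3, since annotated UTR bases lie there: Amotl2 (chr9:102717727-102717756, plus strand), both matches of Ankrd1 (chr19:36120037-36120066 and chr19:36119950-36119979, minus strand) and 2 of the 3 matches at the second start of Tead3 (chr17:28350706-28350735, minus strand), with the match in capitals.
Amotl2: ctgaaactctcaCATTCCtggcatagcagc
Ankrd1, first match: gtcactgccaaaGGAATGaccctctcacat
Ankrd1, second match: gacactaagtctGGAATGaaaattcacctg
Tead3: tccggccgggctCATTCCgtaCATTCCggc
Tead2 was the 1 gene of the 7 whose window held no such letters. The stretch outside its annotated UTR (chr7:45215542-45215752, plus strand) is shown for comparison with Cyr61.
Tead2: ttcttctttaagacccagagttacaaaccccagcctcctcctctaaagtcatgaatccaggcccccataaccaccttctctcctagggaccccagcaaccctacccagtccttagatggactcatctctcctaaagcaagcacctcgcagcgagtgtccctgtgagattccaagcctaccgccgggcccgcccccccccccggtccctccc

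**Figure D1:**
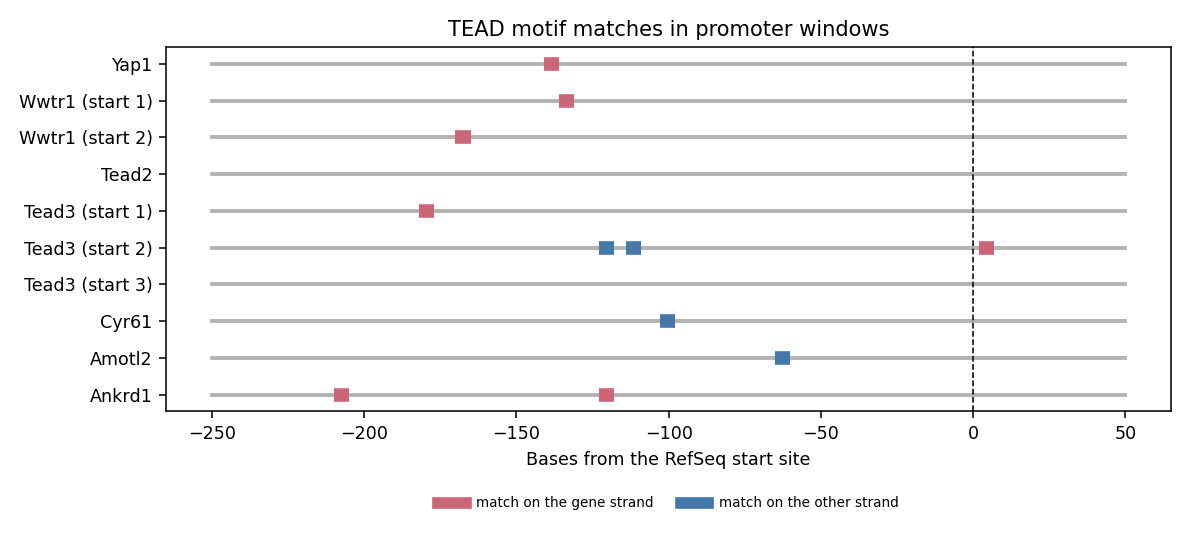
Position of GGAATG, on either strand, in the RefSeq promoter windows of 7 of the 10 genes, as bases from the start site (horizontal axis, the dashed line marks the start, and squares are matches). The match lies 103 bases before the start in Cyr61, 65 in Amotl2, 210 and 123 in Ankrd1 and 141 in Yap1, and the Tead2 window has none.

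The matches lay at different distances from the start. The first base of the match was 103 bases before the start in Cyr61, 65 in Amotl2, and 210 and 123 in Ankrd1. Among the factors themselves, it was 141 bases before the start in Yap1, 136 or 170 in Wwtr1 depending on which of its 2 start sites is used, and 182 before the first start of Tead3. At the second start of Tead3 the matches began 123 and 114 bases before it and, for 1 more, 2 bases after it. The genes with a match included Ankrd1, which had no read, and Wwtr1, which was lower with PluriSIn#2, so having the letters did not go with 1 direction.

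Of the 9 genes tested, 8 were called (88.9%, beside 82.6% of all genes), 5 higher and 3 lower with PluriSIn#2. The share called was close to that of all genes, so the number of calls says little about this set. The 5 higher were the 3 detected target genes, Ctgf, Cyr61 and Amotl2, with Tead3 and Tead4. The 3 lower were Wwtr1, Tead1 and Tead2, and Yap1 was not called. The values of the groups did not overlap for the 8 called genes, beside 82.7% of all genes tested. Changes of at least 2-fold were called for 4 of the 9 (44.4%, beside 28.0% of all genes), namely Tead2, Tead3, Tead4 and Cyr61. Tead4 was tested only through the treated libraries, so it had to be higher to enter any of these counts. The median log2 fold change was 0.90 over the 9 genes, Tead4 included, and 0.01 over all genes tested. With Tead4 in it, this median is not a measure of the direction of the set. The other genes tested ran from -1.25 (Tead2) to 1.33 (Tead3).

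**Figure D2:**
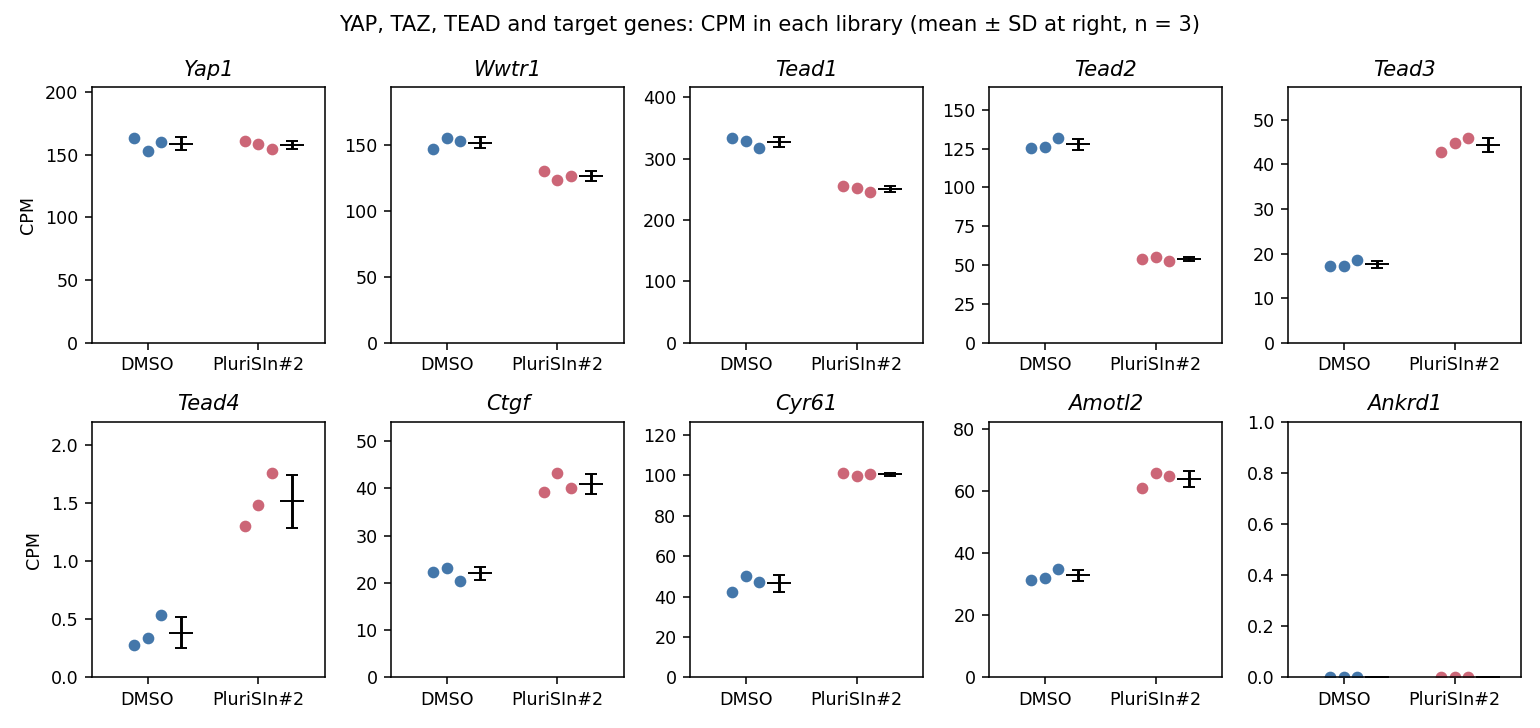
CPM of each of the 10 genes in every library (vertical axes, one scale per gene, all from 0), with DMSO in blue and PluriSIn#2 in red and the mean ± SD (n = 3) to the right of the points. Ctgf, Cyr61, Amotl2, Tead3 and Tead4 are higher with PluriSIn#2 without overlap, Wwtr1, Tead1 and Tead2 are lower without overlap, Yap1 overlaps and Ankrd1 has no read.

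The co-activators differed from each other. Yap1, which encodes YAP (chr9:7931999-8004596, minus strand), stood at 163, 153 and 160 CPM with DMSO and at 161, 158 and 155 CPM with PluriSIn#2. The groups overlapped: the means were 159 ± 5.04 and 158 ± 3.13 CPM (SD, n = 3). The log2 fold change was -0.01 (SE 0.032, 95% interval -0.07 to 0.06, adjusted p = 0.84), so a change of Yap1 RNA beyond this interval was not seen under this scaling. Scaling by the upper quartile, which moved the median of all genes by 0.11, gave 0.10 (adjusted p = 0.00321), so the sign for Yap1 depends on the scaling and its change relative to that shift is close to 0 either way. Wwtr1, which encodes TAZ (chr3:57455649-57575910, minus strand), stood at 147, 155 and 153 CPM with DMSO and at 130, 123 and 126 CPM with PluriSIn#2. Every treated library was below every control library, and Wwtr1 fell by 0.26 on the log2 scale (SE 0.033, adjusted p = 3.28e-11).

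These are bulk libraries, in which fewer cells of a type and less RNA per cell cannot be told apart. Yap1 shares 116 exonic bases with the gene Gm20416 on the other strand, and the strand setting of the counting is not known here. Per length, on the deposited FPKM scale, the levels were 36.5 ± 1.13 for Yap1 and 30.6 ± 0.843 for Wwtr1 with DMSO (SD, n = 3) and 38.1 ± 0.776 and 26.8 ± 0.808 with PluriSIn#2. The sum of the 2 co-activators was 67.0 ± 0.473 FPKM with DMSO and 64.8 ± 1.38 FPKM with PluriSIn#2, 96.7% of the DMSO level. These FPKM moved as with scaling by library totals, which gave log2 fold changes of 0.06 for Yap1 and -0.19 for Wwtr1. The TMM fit gave -0.01 for Yap1, which was not called, and -0.26 for Wwtr1, and the sum was not computed under TMM. On the FPKM scale the treated libraries held nearly as much co-activator RNA as the controls, with a slightly larger part of it from Yap1. That part, computed from counts per annotated exonic length, was 36.4%, 33.8% and 35.1% with DMSO and 38.9%, 39.9% and 38.8% with PluriSIn#2. The difference was 4.09 percentage points, higher in 3 of 3 treated libraries (two-sided exact permutation test, p = 0.1, the smallest that 3 against 3 libraries allow). With the length behind the FPKM values the part was 54.4% and 58.7%, so which of Yap1 and Wwtr1 is the more abundant depends on the length used, while the rise of the Yap1 part does not.

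The 4 TEAD genes moved in opposite directions, the 2 abundant ones down and the 2 scarce ones up. Tead2, a family member known for its expression in neural progenitors (chr7:45215753-45233644, plus strand), stood at 126, 126 and 132 CPM with DMSO and at 53.8, 54.9 and 52.3 CPM with PluriSIn#2. Tead2 fell by 1.25 on the log2 scale (SE 0.040, adjusted p = 1.35e-46), and no treated library came near a control library. Tead1, a broadly expressed member (chr7:112679318-112906807, plus strand), stood at 333, 329 and 317 CPM with DMSO and at 255, 251 and 245 CPM with PluriSIn#2. Tead1 fell by 0.38 on the log2 scale (SE 0.026, adjusted p = 7.33e-24), from a mean of 326 ± 8.29 to 250.4 ± 5.24 CPM (SD, n = 3).

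Tead3 (chr17:28331671-28350817, minus strand) stood at 17.2, 17.2 and 18.6 CPM with DMSO and at 42.7, 44.7 and 45.9 CPM with PluriSIn#2. The groups did not overlap, and the log2 fold change was 1.33 (SE 0.065, adjusted p = 1.88e-33). Tead4 (chr6:128224288-128300823, minus strand), known for its part in trophectoderm formation, was close to the limit of detection with 5, 6 and 10 reads in the DMSO libraries and 23, 27 and 30 reads in the PluriSIn#2 libraries. Its log2 fold change was 1.95 (SE 0.371, adjusted p = 1.91e-06). Tead4 passed the filter on low counts only through the treated libraries, so a gene of this kind had to differ to be tested at all. In CPM it rose from 0.384 ± 0.133 to 1.51 ± 0.231 (SD, n = 3), which remained far below the other 3 TEAD genes.

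Per length, Tead2 was the most abundant TEAD gene of the DMSO libraries on the FPKM scale, at 56.7 ± 1.40 (SD, n = 3), followed by Tead1 at 31.4 ± 0.837, Tead3 at 6.09 ± 0.266 and Tead4 at 0.119 ± 0.041. With PluriSIn#2, Tead1 at 25.2 ± 0.541 and Tead2 at 25.0 ± 0.596 FPKM overlapped, Tead3 followed at 16.1 ± 0.558 and Tead4 at 0.493 ± 0.075. The overlap of Tead1 and Tead2 depends on the length used. With annotated exonic lengths their mean shares with PluriSIn#2 were 50.3% and 30.5%. Summed over the 4 genes, the level was 94.3 ± 0.880 FPKM with DMSO and 66.8 ± 0.659 FPKM with PluriSIn#2, 70.9% of the DMSO level. The increase of Tead3 was thus smaller in amount than the decrease of Tead2 and Tead1.

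The make-up of the family shifted as well. In counts per annotated exonic length, Tead2 made up 49.1%, 49.5% and 51.1% of TEAD RNA in the DMSO libraries and 30.6%, 30.9% and 30.1% in the PluriSIn#2 libraries. Tead3 made up 4.80%, 4.80% and 5.14% with DMSO and 17.3%, 18.0% and 18.8% with PluriSIn#2. The groups did not overlap for either gene. The mean share of Tead1 was 45.0% with DMSO and 50.3% with PluriSIn#2, and that of Tead4 was 0.199% and 1.15%. For all 4 shares the two-sided exact permutation test gave p = 0.1, the smallest possible with 3 against 3, and 0.1 after adjustment over these 4 shares. With the length behind the FPKM values the shares of Tead2 were 60.1% and 37.4% and those of Tead3 were 6.46% and 24.1%, in the same directions.

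**Figure D3:**
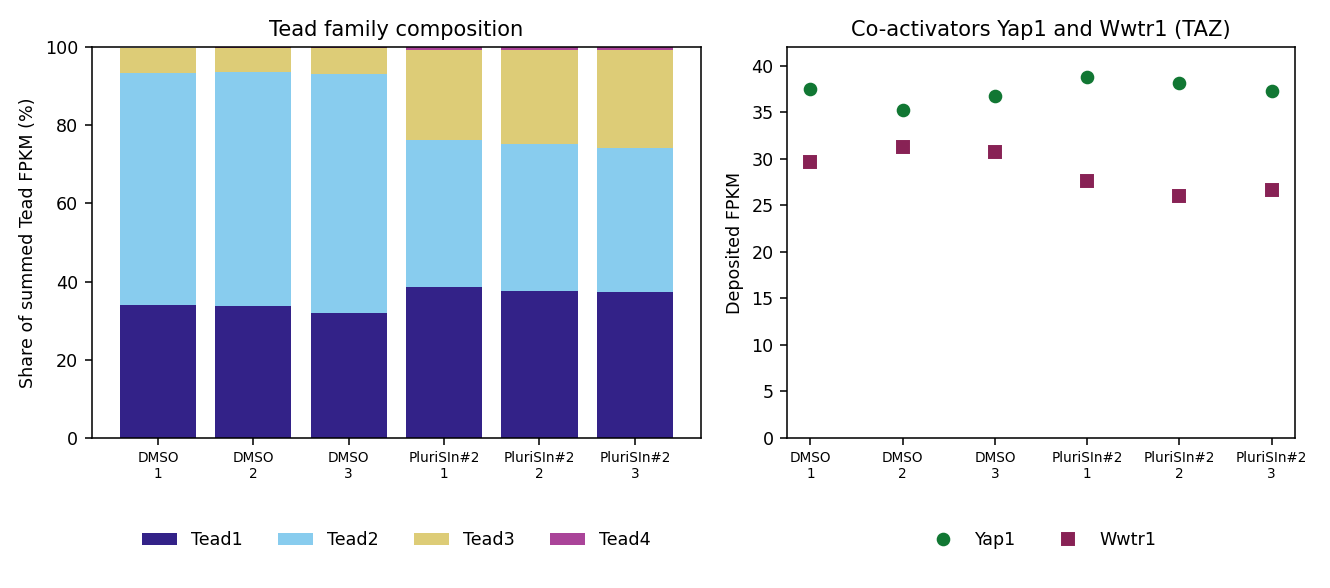
Left, share of the summed FPKM of Tead1 to Tead4 in each of the 6 libraries (percent, stacked from 0 to 100). Right, deposited FPKM of Yap1 and Wwtr1 in each library (vertical axis from 0). On this scale the mean share of Tead2 is 60.1% with DMSO and 37.4% with PluriSIn#2, that of Tead3 is 6.46% and 24.1%, and Wwtr1 is lower in every treated library.

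All 3 detected target genes rose. Cyr61, also called Ccn1, encodes a secreted matrix-associated protein and is among the most direct YAP targets (chr3:145646976-145649981, minus strand). It stood at 42.1, 50.4 and 47.1 CPM with DMSO and at 101, 99.6 and 101 CPM with PluriSIn#2. The treated libraries lay close together and all above the controls, with a log2 fold change of 1.11 (SE 0.046, adjusted p = 7e-39). Ctgf, also called Ccn2, encodes another secreted protein of the same family (chr10:24595442-24598683, plus strand). It stood at 22.2, 23.2 and 20.5 CPM with DMSO and at 39.3, 43.3 and 40.2 CPM with PluriSIn#2, again with no overlap. Its log2 fold change was 0.90 (SE 0.064, adjusted p = 5.31e-23). Ctgf shares 665 of its 2861 annotated exonic bases with Gm15270, a transcript on the other strand.

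Amotl2 encodes an angiomotin family protein that binds YAP at cell junctions and is itself a target (chr9:102716672-102733418, plus strand). It stood at 31.5, 32.1 and 34.8 CPM with DMSO and at 61.1, 65.8 and 64.9 CPM with PluriSIn#2. Every treated library was above every control, and the log2 fold change was 0.96 (SE 0.053, adjusted p = 3.76e-30). The authors' deposited table gives log2 fold changes of 1.11 for Cyr61, 0.89 for Ctgf and 0.96 for Amotl2, and of -0.01 for Yap1, -0.27 for Wwtr1, -1.26 for Tead2 and 1.33 for Tead3. On the FPKM scale, Cyr61 was the highest of the 3 targets in both groups, at 22.0 ± 1.98 with DMSO and 49.8 ± 0.487 with PluriSIn#2 (SD, n = 3). Ctgf followed at 8.76 ± 0.569 and 17.1 ± 0.850 and Amotl2 at 7.49 ± 0.395 and 15.3 ± 0.583 FPKM. So on the FPKM scale target levels were higher where the summed level of co-activators was nearly equal and that of TEAD genes lower.

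Ankrd1, a muscle ankyrin repeat gene and a standard YAP readout in many cell lines (chr19:36111961-36120099, minus strand), had 0 reads in all 6 libraries. A count of 0 allows up to 3 counts, which is 0.160 to 0.176 CPM in these libraries, counting error only. Its family members were also low. Ankrd2 had 10 reads over the DMSO libraries and 10 over the PluriSIn#2 libraries and was not tested, and Ankrd23 had means of 4.46 and 7.82 CPM (log2 fold change 0.81, SE 0.137, adjusted p = 1.39e-07).

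The CCN family, to which Ctgf and Cyr61 belong, has 4 other members, of which 3 were tested and 2 rose. Among all genes tested 41.7% were higher. Nov, a secreted member known from nephroblastoma, had 39 reads over the 3 DMSO libraries and 374 over the 3 PluriSIn#2 libraries, with a log2 fold change of 3.28 (SE 0.217). Wisp1, a WNT-induced member, had 54 and 110 reads, a log2 fold change of 1.06 (SE 0.281). Its call was lost with treated replicate 1 alone, at 0.90 (adjusted p = 0.0504). Wisp3 went the other way with 89 and 20 reads, a log2 fold change of -2.10 (SE 0.380), and passed the filter only through the DMSO libraries. Wisp2 had 3 and 5 reads and was not tested. In CPM, Nov reached only 7.05 with PluriSIn#2, below Ctgf and Cyr61.

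A longer list of 22 YAP/TAZ targets, which includes the 4 target genes above, was read for its direction. The list was chosen with earlier results of these data known, so its share of higher genes is a description and not a test. Of its 18 other genes, 15 were higher (83.3%, beside 41.7% of all genes), 2 were lower and 1, Rbms3, was not called, and their median log2 fold change was 0.97. F3, the tissue factor gene of blood clotting, stood at 34.6 ± 1.18 CPM with DMSO and 117 ± 3.79 CPM with PluriSIn#2 (SD, n = 3), a log2 fold change of 1.75 (SE 0.045). Axl, a receptor tyrosine kinase gene, went from 53.1 ± 1.43 up to 157 ± 1.45 CPM, a log2 fold change of 1.56 (SE 0.038). Foxf2, a forkhead factor gene of mesenchymal cells, had 11 reads with DMSO and 107 with PluriSIn#2 (log2 fold change 3.27, SE 0.406), and passed the filter only through the treated libraries. The 2 lower genes were Nt5e, which encodes the ecto-nucleotidase CD73, with 125 and 52 reads (log2 fold change -1.22, SE 0.272), and Fjx1, at 139 and 98.3 CPM (log2 fold change -0.50, SE 0.036).

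Summed over the 22 genes, the level was 1658 to 1686 CPM with DMSO and 3561 to 3584 CPM with PluriSIn#2. Much of that sum came from Igfbp3, a gene for a secreted binder of insulin-like growth factors, at 777 ± 6.19 and 1995 ± 16.0 CPM (SD, n = 3), and it was singled out after its values were seen. Gadd45a, which is a known p53 target as well, rose from 3.89 ± 0.434 to 8.38 ± 0.432 CPM and was also singled out after its values were seen. The part of YAP, TAZ or any other regulator in these changes was not tested. Of the 18 genes outside the set of 10, 12 had a promoter window, and 4 of their 14 windows (28.6%) held GGAATG, beside 14.7% of all windows.

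**Figure D4:**
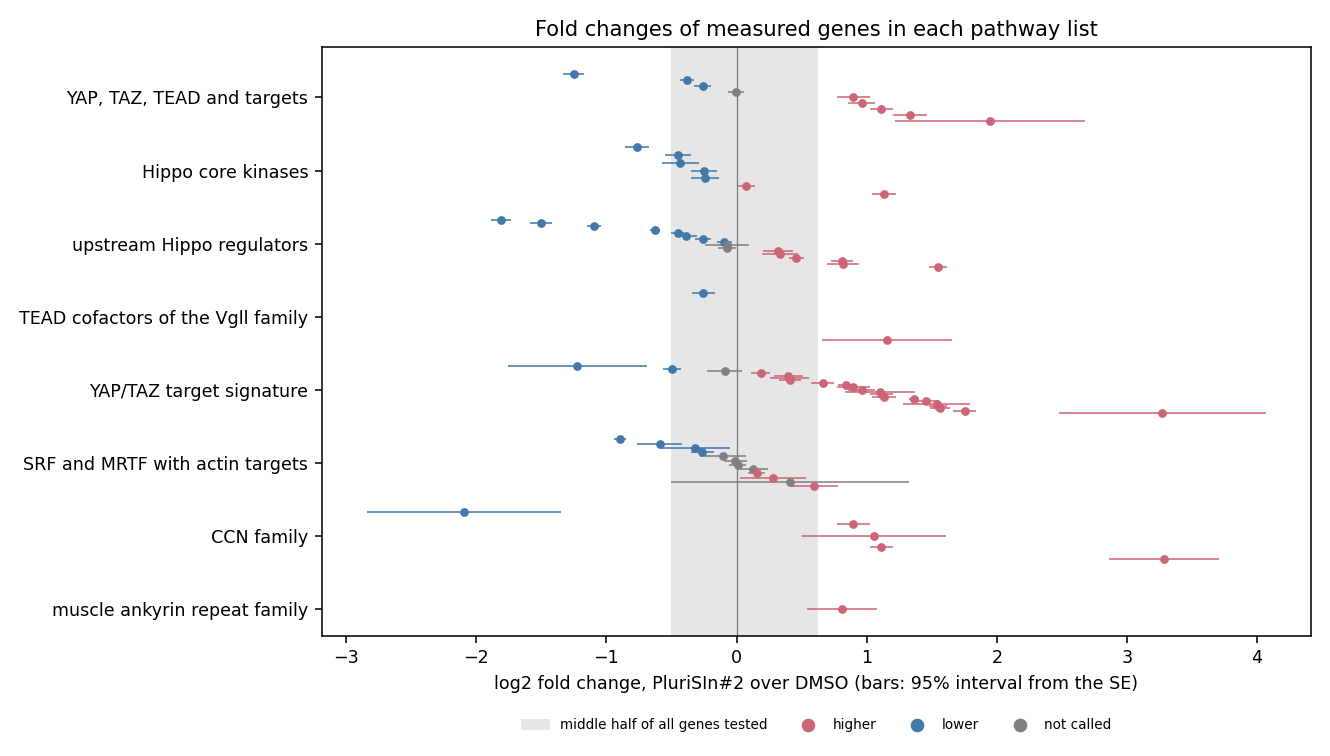
Log2 fold change (PluriSIn#2 over DMSO, horizontal axis) of each tested gene of 8 lists, with the 95% interval from the standard error. Red is higher, blue is lower, grey is not called, and the grey band holds the middle 50% of all genes tested. In the list of YAP/TAZ targets 18 of 21 tested genes are higher, while the core kinases have 2 higher and 5 lower. Among all genes tested 41.7% are higher and 40.9% lower.

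The kinase core of the Hippo pathway changed mostly downward by less than 2-fold, with 1 exception. All 7 genes were tested and called, 5 as lower and 2 as higher, with a median log2 fold change of -0.25. Of all genes tested, 82.6% were called, 41.7% as higher and 40.9% as lower. The number of calls therefore says little about this core. Lats2, a kinase gene that is also a YAP target and so part of a known feedback loop, stood at 41.2 ± 1.25 CPM with DMSO and 90.3 ± 2.19 CPM with PluriSIn#2 (SD, n = 3), a log2 fold change of 1.13 (SE 0.046, adjusted p = 2.6e-39). Its paralogue Lats1 was at 118 ± 1.50 and 124 ± 0.988 CPM, a log2 fold change of 0.07 (SE 0.034, adjusted p = 0.0394). That call was lost when any 1 library was left out (0.06 to 0.08).

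The other genes of this kinase core, which act directly upstream of or beside Lats1 and Lats2, were lower. Stk4, which encodes the kinase MST1, fell by 0.77 on the log2 scale (SE 0.046), from 81.2 to 47.7 CPM. Stk3, its paralogue, fell by 0.43 (SE 0.072) and Sav1, the scaffold of both kinases, fell by 0.45 (SE 0.050). The Lats1 and Lats2 co-activator genes Mob1a and Mob1b fell by 0.24 (SE 0.055) and 0.25 (SE 0.052).

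Of 16 regulators upstream of the kinases, 6 were higher, 8 lower and 2 not called, with a median log2 fold change of -0.08. Among all genes tested 41.7% were higher and 40.9% lower, so these counts say little about the regulators. Ptpn14, a phosphatase gene whose protein holds YAP in the cytoplasm and which is also on the target list, stood at 73.9 ± 2.31 CPM with DMSO and 216 ± 1.85 CPM with PluriSIn#2 (SD, n = 3), a log2 fold change of 1.55 (SE 0.034). Ajuba, whose LIM protein restrains Lats1 and Lats2, had a log2 fold change of 0.82 (SE 0.063), and Wwc2, a KIBRA family gene, one of 0.81 (SE 0.044). Limd1, a relative of Ajuba, went the other way and fell by 1.81 (SE 0.038), from 188 to 53.7 CPM. Fat4, the large cadherin gene, fell by 1.50 (SE 0.044), from 118 to 41.4 CPM. Amotl1, a paralogue of Amotl2, fell by 1.10 (SE 0.027), from 393 to 184 CPM, so the 2 angiomotin-like genes moved in opposite directions.

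The Vgll genes encode cofactors that bind TEAD factors at the same surface as YAP and TAZ. Vgll4, a repressor of TEAD activity and the only abundant member, fell by 0.25 on the log2 scale (SE 0.046), from 66.6 to 55.8 CPM. Vgll3 had 67 and 146 reads (log2 fold change 1.16, SE 0.254), Vgll2 had 35 and 7 reads and was not tested, and Vgll1 had no read in any library.

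Genes of SRF and its co-activators with actin targets, a neighbouring programme that also answers to the cytoskeleton and shares targets with YAP, did not move in 1 direction. Of 13 genes, 12 were tested, 3 were higher, 4 lower and 5 not called, with a median log2 fold change of 0.00. Among all genes tested 41.7% were higher and 40.9% lower. Flna, which encodes an actin cross-linker, fell by 0.90 (SE 0.022), from 735 to 395 CPM. Cnn2, a calponin gene, fell by 0.59 (SE 0.088) and Myl9, a myosin light chain gene, by 0.32 (SE 0.136). Tagln rose by 0.59 (SE 0.095), Tpm2 by 0.28 (SE 0.129) and Vcl, the vinculin gene, by 0.15 (SE 0.035). The calls of Myl9 and Tpm2 were lost in several alternatives. Scaling by library totals gave 5 higher genes in this list and scaling by the upper quartile gave 6.

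Markers of several other cell types were higher with PluriSIn#2, as the target genes were, while those of the oligodendrocyte lineage were lower. Several of the targets are expressed in mesenchymal or vascular cells. The 10 fibroblast and mural cell markers had a summed level of 24.5 to 25.5 CPM with DMSO and 221 to 226 CPM with PluriSIn#2. Of the 8 tested, 7 were higher. Of these, 4, Col3a1 included, had passed the filter on low counts only through the treated libraries, so that they had to be higher to be tested. Col3a1 and Col1a1, fibrillar collagen genes, had log2 fold changes of 6.60 (SE 0.120) and 4.51 (SE 0.104). The mural cell markers, named after their values were seen, differed. Pdgfrb and Rgs5 were among the 7 higher, while Acta2 was tested and not called (-0.10, SE 0.091). Myh11, with 16 and 29 reads, and Des, with 31 and 20, were not tested. The 8 endothelial markers had sums of 6.51 to 7.73 and 30.7 to 33.6 CPM, and of the 7 tested 6 were higher, 2 of them, Cdh5 included, tested only through the treated libraries. Cdh5, the cadherin of endothelium, had 7 and 879 reads (log2 fold change 6.93, SE 0.237), and Flt1, a VEGF receptor gene, had 149 and 201 (0.47, SE 0.189). Tek, the tested marker that was not called, had 36 and 28 reads (-0.32, SE 0.418). The Flt1 call was lost with DESeq2 (adjusted p = 0.073), without DMSO replicate 3 (0.29, edgeR adjusted p = 0.179), without PluriSIn#2 replicate 3 (0.35, adjusted p = 0.129) and with treated replicate 1 alone (0.25, adjusted p = 0.422). The part of these cells in the rise of Cyr61, Ctgf, Amotl2 and the target list was not tested.

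The 12 macrophage and microglia markers had sums of 7.71 to 8.57 and 180 to 186 CPM. The 11 tested were higher, but 9 of them had passed the filter only through the treated libraries. Lyz2, the lysozyme gene, had a log2 fold change of 6.00 (SE 0.097) and Cd68 one of 2.12 (SE 0.101). Trem2 had 0 reads over the DMSO libraries and 543 over the PluriSIn#2 libraries, at least 186-fold higher when the DMSO group is set to 3 counts in all. The 5 choroid plexus markers had sums of 2.70 to 3.36 and 509 to 528 CPM and were higher, 3 of them, Clic6 included, tested only through the treated libraries. Ttr was higher by 8.04 (SE 0.057) and Clic6 by 5.97 (SE 0.288) on the log2 scale. The 6 ependymal markers had sums of 37.3 to 39.7 and 154 to 155 CPM. The 5 tested were higher, 3 of them tested only through the treated libraries, and the other two were Foxj1 (2.08, SE 0.043) and Rsph1 (0.80, SE 0.168). Their part in the changes of the TEAD and target genes was not tested.

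Glial and neuronal markers differed by lineage. All 6 astrocyte markers were higher, 1 of them tested only through the treated libraries, with sums of 1089 to 1104 CPM with DMSO and 2613 to 2642 CPM with PluriSIn#2. Among them were Slc1a2 (log2 fold change 1.75, SE 0.021) and Aldh1l1 (0.17, SE 0.022). Of 6 oligodendrocyte lineage markers, the 5 tested were lower, with sums of 1176 to 1229 and 735 to 740 CPM, among them Olig2 (-0.58, SE 0.021) and Cspg4 (-0.79, SE 0.036). Most of these sums was Olig2, at 956 CPM with DMSO and 638 CPM with PluriSIn#2. The other tested markers, named after their values were seen, were Sox10 (-4.77, SE 0.146), Pdgfra (-3.54, SE 0.082) and Mbp (-0.61, SE 0.117), so the falls differed widely in size. Of 5 neuroblast markers 2 were higher, 1 lower and 2 not called, with sums of 61.5 to 64.0 and 72.8 to 79.5 CPM. Dcx had a log2 fold change of -0.15 (SE 0.078) and Tubb3 one of 0.12 (SE 0.077), and neither was called, though Tubb3 was with library totals (0.19, adjusted p = 0.024), the upper quartile (0.22, adjusted p = 0.00695) and without PluriSIn#2 replicate 1 (0.21, adjusted p = 0.0149).

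**Figure D5:**
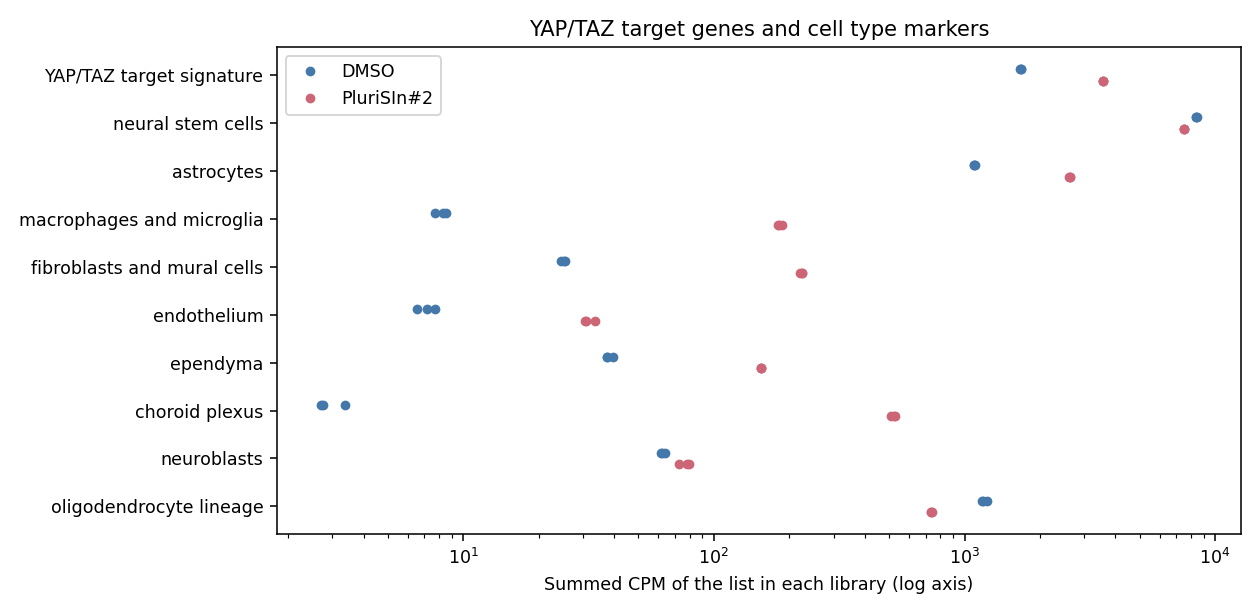
Summed CPM (horizontal log axis) of the 22 YAP/TAZ targets and of each list of cell type markers, 1 point per library, DMSO in blue and PluriSIn#2 in red. The targets stand at 1658 to 1686 CPM with DMSO and 3561 to 3584 CPM with PluriSIn#2. The summed markers of macrophages, fibroblasts and mural cells, endothelium, ependyma and choroid plexus are higher in every treated library.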

How the data were processed

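RNA of adult mouse SVZ neural stem cells was sequenced in 6 libraries, 3 per group, and samples were grouped by title. The submitters' processing notes name the aligner STAR, the counter HTSeq, DESeq and build mm10. Tool versions, annotation and strand setting were, in the sources used here, not given. The deposited table of counts holds whole reads per gene symbol, not normalized. The deposited FPKM values were normalized by the authors for length and depth. The log2 fold changes and adjusted p-values in the deposited comparison are the authors' own.

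Counts were tested in R 4.3.3 with edgeR 4.0.16 (filterByExpr with a minimum count of 10, TMM, glmQLFit, glmQLFTest, two-sided) on all 6 libraries with group as the only term. Adjusted p-values are Benjamini-Hochberg over 14417 genes with a threshold of 0.05, and every adjusted p in the text is from this test unless named otherwise. CPM use library totals times TMM factors, and 95% intervals use the standard error. TMM factors ran from 0.975 to 0.978 with DMSO and from 1.02 to 1.03 with PluriSIn#2. A chi-square statistic per degree of freedom was 1.56 to 2.22 between replicates and 201 to 215 across groups, so no 2 libraries were copies. Shares per length used the exonic length of GENCODE M21 on GRCm38 (the build mm10), which matched all 10 genes. RefSeq symbols Ccn2 and Ccn1 stand for Ctgf and Cyr61. Floors cover counting error only, while standard errors and intervals also hold the spread between libraries.

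The 10 genes and all lists were chosen with earlier results of these data known. Text names the 10 genes, Top2a, the 3 called genes of largest change per direction in each pathway list with a mean of at least 1 CPM, all genes of lists of up to 7, the 2 most abundant markers of each cell type list, and markers with no read in a group. Alternatives were other scalings, filters, DESeq2 1.42.0, a replicate block, leaving out each library and treated replicate 1 alone. The test was tried on simulated counts first.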

Additional observations from a re-analysis of the deposited data

How the results depend on the processing

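Of 126 fits of single genes among the 9 tested, 125 kept direction and side of the threshold. The exception was Yap1 under upper quartile scaling, 0.10 (adjusted p = 0.00321). Of 699 fits of the other named genes, 670 kept theirs. The 45 alternative values of the 5 share differences kept their direction, but without a length correction the shares with DMSO and PluriSIn#2 were 69.1% and 71.5% for Tead1, 27.1% and 15.3% for Tead2 and 0.0814% and 0.432% for Tead4, smaller differences than per length. Higher genes among actin targets numbered 5 with library totals and 6 with the upper quartile, against 3, and 2 to 4 when 1 library was left out. Higher core kinases numbered 1, against 2, with DESeq2, no filter, the replicate block and treated replicate 1 alone, and 1 to 1 over the libraries left out, since the Lats1 call was lost. Lower Vgll genes numbered 2, against 1, with no filter, and 1 to 2 over the libraries left out (2 without DMSO replicate 3 or any 1 treated replicate), since Vgll2 was then tested. Lower CCN genes numbered 0, against 1, at a filter of 1 CPM, which left Wisp3 untested.

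All genes called numbered 11915, and 10943 to 12507 under the alternatives. The share of calls that were higher was 50.5%, and 57.2% with the upper quartile. Replicate numbers did not pair the libraries: correlations of deviations between same-numbered libraries were 0.0134, 0.0293 and -0.0025, and not every library correlated best with its own number. The replicate block called 11851 genes and changed no call among the 10 genes. Depth limits Tead4 and Ankrd1, for which single reads matter.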
